A study of Mus musculus with 8 samples.

Results

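The heat shock genes described here were 10 listed symbols, Hsph1, Hspd1, Hspe1, Hsp90aa1, Hsp90ab1, Hspa4, Hspa8, Hspb1, Dnajb1 and Hsf1, chosen by name. All 10 were present in each of the 4 deposited comparison tables, out of 15571 genes that were in all 4. The study used mouse embryonic stem cells of the line ES-E14TG2a (E14), which is of male origin, and TT-seq, which draws out the RNA labelled during a short pulse of 4-thiouridine (500 nM for 5 min). The labels describe a medium with LIF and one with LIF+2i and do not say which these cells had. Mutant lines carried K122A, which puts alanine in the place of a lysine of histone H3.3. H3f3a and H3f3b both encode this histone, which enters chromatin outside DNA replication. Dual-targeted cells had 3 mutant alleles and gave 3 libraries: 2 from clones that were H3f3a A/A H3f3b WT/A, and 1 from a line that was H3f3a WT/A H3f3b A/A. Single-targeted cells had 2 mutant alleles and gave 2 libraries, 1 of H3f3a A/A H3f3b WT/WT and 1 of H3f3a WT/WT H3f3b A/A. Wildtype cells gave 3 libraries. All 8 libraries came from cells given the labelling medium, and each mutant line was profiled a single time, so error within a mutant group is spread between lines.

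Heat shock proteins are chaperones that bind unfolded or newly made proteins and help them fold. HSF1 is the transcription factor that switches on many of their genes when unfolded proteins build up, by binding repeats of the 5-base unit nGAAn, the heat shock element. HSP70 proteins work with J-domain partners (HSP40) and with HSP110 proteins that exchange their nucleotide, HSP90 matures signalling proteins, HSP60 and HSP10 fold proteins inside mitochondria, and small heat shock proteins hold unfolded proteins. Several of these genes are also highly active in unstressed, dividing cells such as embryonic stem cells.

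Of the 10 symbols, 6 matched an entry in the RefSeq promoter table of build GRCm38.p6, which gives 250 bases before and 50 after each gene start. The sequences below show the heat shock units near the starts of Hspd1, Hspe1, Hsph1 and Hspb1, with Dnajb1 beside them. They were picked with the fold changes known, so they say nothing of a link between units and change. Capitals mark matches to 2 inverted units, searched as GAA and TTC in either order with any 2 bases between them, which covers both strands since each form reads the same on the other. Overlapping matches were kept. The first sequence is the stretch of 215 bases between the RefSeq starts of Hspd1 and Hspe1, which point away from each other, and it is given on the Hspe1 strand. The others are the 250 bases before the start, 5′ to 3′ on the gene's own strand.
Hspd1-Hspe1, chr1:55087933-55088147, plus strand: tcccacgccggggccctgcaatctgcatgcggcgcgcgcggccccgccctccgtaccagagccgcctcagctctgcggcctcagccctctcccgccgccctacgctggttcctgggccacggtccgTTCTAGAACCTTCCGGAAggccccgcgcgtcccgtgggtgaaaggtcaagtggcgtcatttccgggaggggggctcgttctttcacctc
Hsph1, chr5:149636337-149636586, minus strand: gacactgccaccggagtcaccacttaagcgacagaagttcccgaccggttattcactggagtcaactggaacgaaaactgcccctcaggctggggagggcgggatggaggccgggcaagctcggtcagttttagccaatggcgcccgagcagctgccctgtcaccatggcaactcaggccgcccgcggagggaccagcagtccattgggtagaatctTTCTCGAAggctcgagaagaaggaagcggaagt
Hspb1, chr5:135887669-135887918, plus strand: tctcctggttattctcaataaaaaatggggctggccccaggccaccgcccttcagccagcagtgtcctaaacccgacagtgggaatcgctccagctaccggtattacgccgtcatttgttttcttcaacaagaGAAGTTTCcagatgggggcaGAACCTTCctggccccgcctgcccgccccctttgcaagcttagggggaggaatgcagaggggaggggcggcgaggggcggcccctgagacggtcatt
Dnajb1, chr8:83607925-83608174, plus strand: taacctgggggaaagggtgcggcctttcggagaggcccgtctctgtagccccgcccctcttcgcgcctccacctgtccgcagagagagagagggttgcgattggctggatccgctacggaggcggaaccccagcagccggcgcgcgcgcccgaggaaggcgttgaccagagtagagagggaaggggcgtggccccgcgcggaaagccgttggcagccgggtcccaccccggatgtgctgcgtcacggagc

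The stretch shared by Hspd1 and Hspe1 held an unbroken run of 18 bases made of 3 overlapping matches. It lay 72 to 89 bases before the Hspe1 start and 127 to 144 bases before this Hspd1 start. Hspd1 has another RefSeq start at position 55088243 of chromosome 1, inside Hspe1, whose window held no match. A stricter search for 3 such units in a row, alternating GAA and TTC with any 2 bases between neighbours, found 3 of the 6 matched genes, Hspd1, Hspe1 and Hsph1, where Hspd1 and Hspe1 share the same bases. In Hsph1 that match, TTCTGGAAAGTTC (chr5:149636288-149636300, minus strand), lay after the start, at bases 37 to 49 when the start is counted as base 1. Among all 32851 windows in the promoter table, 0.603% held the 3-unit form and 15.1% the 2-unit form. Hspb1 held 2 separate 2-unit matches, and the windows of Dnajb1 and Hspa4 held neither form. Of the 134 other chaperone genes described further on, 108 matched the promoter table, and 23 of these held the 2-unit form. The 3-unit form was held by 2 of the 108. They were Chordc1, an HSP90 cochaperone, at 0.22 ± 0.19 for dual-targeted against wildtype (adjusted p = 0.365), and Dnajb6, an HSP40 protein, at 0.21 ± 0.16 (adjusted p = 0.345) in the authors' deposited table, which gives log2 fold changes with standard errors, so neither was called. A match here is a description of letters and not of HSF1 binding.

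The values come from the authors' deposited tables, each a comparison of groups with its own normalization, with no column of values per library, and the depth of each library is unknown. A gene was called when the authors' adjusted p was under 0.05. Their log2 fold changes are read here as shrunken towards 0, because in 100% of calls the value lay below that which its p and standard error (SE) imply. Group means were rebuilt by subtraction from the tables' mean normalized counts and carry no error. The third dual-targeted line is 1 library, so its rebuilt value is that of a single library. They are means over libraries, and in bulk RNA a change in all cells and a change in a part of them cannot be told apart. The RNA level of the targeted genes does not check the labels, since the tables do not show which allele the RNA came from. H3f3a stood at 0.13 ± 0.19 for dual-targeted (adjusted p = 0.633) and -0.12 ± 0.18 for single-targeted against wildtype (adjusted p = 0.674) in the authors' deposited tables. H3f3b stood at 0.06 ± 0.36 for dual-targeted (adjusted p = 0.8) and -0.01 ± 0.17 for single-targeted against wildtype (adjusted p = 0.908) in the authors' deposited tables, but the dual-targeted lines differed. In the clones against wildtype it was called higher, at 0.84 ± 0.27 (adjusted p = 0.00351) in the authors' deposited table. The rebuilt H3f3b mean was 4855 normalized counts in the H3f3a A/A clones and 356 in the third dual-targeted line. It was 1849 in single-targeted cells, whose lines could not be separated, and 2511 in wildtype cells.

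As a check of cell type, all 8 embryonic stem cell markers were in the tables, with a summed rebuilt mean of 21432 normalized counts in dual-targeted, 17102 in single-targeted and 17090 in wildtype cells. Outside the neural list, markers of other types were low. The trophectoderm list rested on 1 of 4 markers in all tables, at 39.2 in dual-targeted, 28.5 in single-targeted and 33.1 in wildtype cells. The fibroblast list likewise rested on 1 of 6 markers, at 30.7 in dual-targeted, 33.8 in single-targeted and 19.6 in wildtype cells. The endoderm list rested on 1 of 5, at 15.7 in dual-targeted, 18.6 in single-targeted and 12.1 in wildtype cells. The neural list, with 4 of 4, summed to 400 in dual-targeted, 285 in single-targeted and 347 in wildtype cells. Its markers Pax6 and Tubb3 were not low, with mean counts of 162 and 138 in the comparison of dual-targeted and wildtype cells. The median gene there had 144. Of 4 mesoderm markers none was in all tables. Some markers were called higher in dual-targeted against wildtype, as the heat shock genes were. They were 5 of the 8 stem cell markers (Pou5f1, Nanog, Tdgf1, Dppa5a and Sall4), at 0.49 to 0.84, the neural marker Tubb3 at 1.07 ± 0.28 (adjusted p = 2.79e-04), the mesoderm marker Kdr at 1.73 ± 0.59 (adjusted p = 0.00251) and the endoderm marker Sox7 at 1.57 ± 1.11 (adjusted p = 0.0319) in the authors' deposited table. Mean counts there were 138 for Tubb3, 19.1 for Kdr and 7.29 for Sox7. Kdr was also called in the clones against wildtype, at 1.52 ± 0.71 (adjusted p = 0.0154) in the authors' deposited table. The other neural markers were not called in dual-targeted against wildtype in the authors' deposited table. Pax6 (-0.33 ± 0.24, adjusted p = 0.232) and Sox1 (-0.32 ± 0.37, adjusted p = 0.335) went down, and Neurod1 went up (0.45 ± 0.42, adjusted p = 0.198). Pax6 was called lower in the clones, at -0.58 ± 0.27 (adjusted p = 0.0429). Single-targeted cells had Nanog (0.68 ± 0.20, adjusted p = 0.00468) and Neurod1 (1.39 ± 0.51, adjusted p = 0.0147) called higher than wildtype in the authors' deposited table. The part of these markers in the heat shock values was not tested.

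In dual-targeted cells 6 heat shock genes were higher than in wildtype: Hsph1, Hspe1, Hspb1, Hspd1, Hsp90aa1 and Hsp90ab1. In single-targeted cells none of the 10 was higher than in wildtype, and Dnajb1 was lower. Set directly against single-targeted cells, dual-targeted cells had 7 of the 10 higher: Hsph1, Hspe1, Hspb1, Hspd1, Hsp90aa1, Hsp90ab1 and Hspa8. In the authors' deposited table of dual-targeted and wildtype cells, 20.9% of 16493 genes were called, 10.8% higher and 10.1% lower, against 6 of 10 and 0 of 10 heat shock genes. The count of 0 lower came from the authors' DESeq2 fit, and at an unadjusted p under 0.05 it was 1 (Dnajb1), with 7 higher. For single-targeted and wildtype cells the authors' deposited table called 2.96% of 15030 genes, 1.49% higher and 1.47% lower, against 0 and 1 of the 10. Without adjustment, at p under 0.05, the DESeq2 counts were also 0 and 1. For dual-targeted and single-targeted cells it called 7.06% of 13141 genes, 4.37% higher and 2.69% lower, against 7 and 0 of the 10 (9 and 0 by DESeq2 at an unadjusted p under 0.05). The median log2 fold change of the 10 genes was 0.67 for dual-targeted against wildtype, beside 0.01 over all genes tested there. It was 0.03 for single-targeted against wildtype, beside 0.00 over all genes, and 0.56 for dual-targeted against single-targeted, beside 0.00. The comparisons share libraries, so their medians are not independent of each other.

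**Figure D1:**
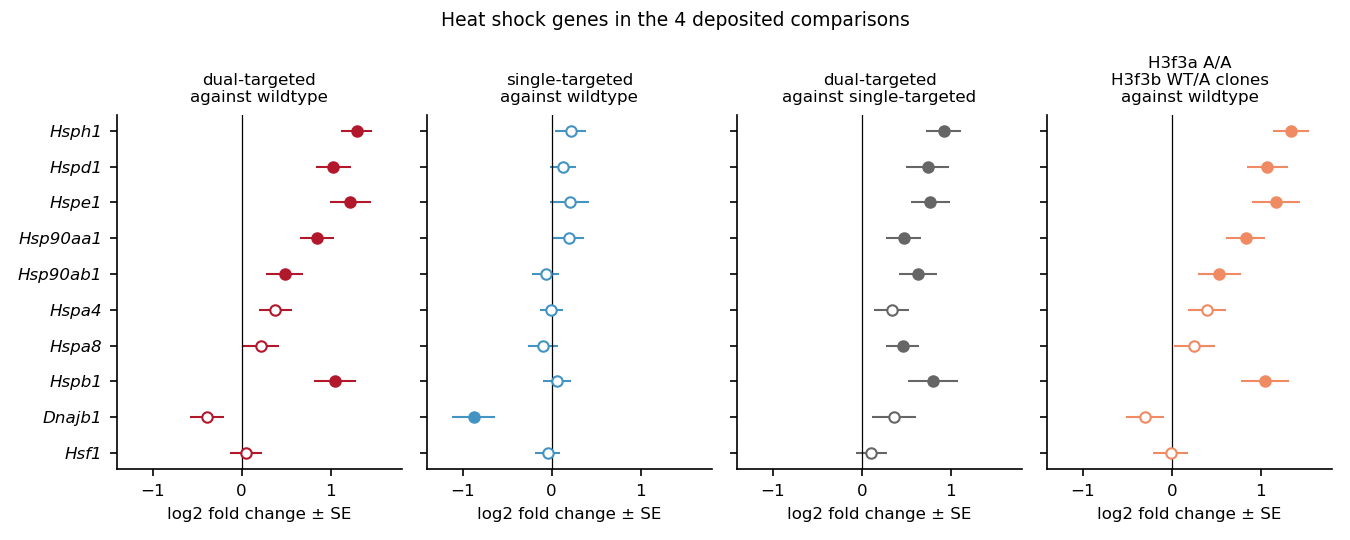
Log2 fold change with its SE for the 10 heat shock genes in the authors' 4 comparisons, where filled circles mark an adjusted p under 0.05 and the vertical line marks 0. The dual-targeted panel reaches 1.30 at Hsph1, while the single-targeted panel stays between -0.10 and 0.21 apart from Dnajb1 at -0.87.

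Hsf1, the gene of the regulator itself (chromosome 15, 76477422 to 76501913, GRCm38), differed little between groups. The rebuilt mean of Hsf1 was 556 normalized counts in dual-targeted, 487 in single-targeted and 533 in wildtype cells. In the authors' deposited tables its log2 fold change was 0.05 ± 0.18 (SE, adjusted p = 0.856) for dual-targeted against wildtype and -0.05 ± 0.14 (adjusted p = 0.897) for single-targeted against wildtype. The mutant groups set against each other stood at 0.11 ± 0.17 (adjusted p = 0.657) in the authors' deposited table. HSF1 is controlled largely at the level of the protein, which TT-seq does not measure.

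Hsph1 (chromosome 5, 149614287 to 149636376), an HSP110 protein that exchanges the nucleotide of HSP70, showed the largest rise of the 10. Its rebuilt mean was 2851 normalized counts in dual-targeted, 1428 in single-targeted and 1138 in wildtype cells. The authors' deposited table gave 1.30 ± 0.17 for dual-targeted against wildtype (adjusted p = 2.43e-12), above 98.5% of genes with at least 50 mean counts. For single-targeted against wildtype the authors' deposited table gave 0.21 ± 0.18 (adjusted p = 0.428). The difference between the mutant groups was itself called, at 0.92 ± 0.20 (adjusted p = 1.47e-04) in the authors' deposited table.

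Hspa4 (chromosome 11, 53259814 to 53300457), the other HSP110 protein of the 10, was not called in any comparison. Its rebuilt mean was 4722 normalized counts in dual-targeted, 3441 in single-targeted and 3487 in wildtype cells. The authors' deposited tables gave 0.38 ± 0.19 for dual-targeted against wildtype (adjusted p = 0.0851), 0.00 ± 0.13 for single-targeted against wildtype (adjusted p = 0.993) and 0.34 ± 0.20 for dual-targeted against single-targeted (adjusted p = 0.147).

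Hspa8 (chromosome 9, 40800984 to 40810087) encodes HSC70, the HSP70 protein that cells make without stress. Its rebuilt mean was 5664 normalized counts in dual-targeted, 3862 in single-targeted and 4666 in wildtype cells, so wildtype lay between the mutant groups. Neither difference from wildtype was called in the authors' deposited tables, at 0.22 ± 0.20 for dual-targeted (adjusted p = 0.395) and -0.10 ± 0.16 for single-targeted (adjusted p = 0.747). Dual-targeted against single-targeted was called, at 0.46 ± 0.18 in the authors' deposited table (adjusted p = 0.0349). The stress-inducible gene Hspa1b was low, with a mean count of 8.81 and 0.39 ± 0.54 for dual-targeted against wildtype in the authors' deposited table (adjusted p = 0.21). Hspa1b and Hspa1a are near-identical copies that can share reads, so the value is uncertain, and Hspa1a was absent from all 4 comparisons.

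The HSP90 genes had the same calls as each other in every comparison, and their values were not tested against each other. Hsp90aa1 (chromosome 12, 110690605 to 110702728), the isoform with the stronger heat response, had a rebuilt mean of 10726 normalized counts in dual-targeted, 7185 in single-targeted and 5758 in wildtype cells. In the authors' deposited tables it stood at 0.85 ± 0.19 for dual-targeted against wildtype (adjusted p = 4.24e-05), 0.19 ± 0.18 for single-targeted against wildtype (adjusted p = 0.491) and 0.47 ± 0.20 for dual-targeted against single-targeted (adjusted p = 0.0402). Hsp90ab1 (chromosome 17, 45567775 to 45573271), the constitutive isoform, had 15577 normalized counts in dual-targeted, 9297 in single-targeted and 10563 in wildtype cells. It was called against wildtype, near the threshold, at 0.48 ± 0.21 (adjusted p = 0.0419), and stood at -0.07 ± 0.15 for single-targeted against wildtype (adjusted p = 0.838) in the authors' deposited tables. Dual-targeted against single-targeted gave 0.64 ± 0.21 for Hsp90ab1 in the authors' deposited table (adjusted p = 0.0125).

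The mitochondrial pair Hspd1 (HSP60, chromosome 1, 55077835 to 55088243) and Hspe1 (HSP10, chromosome 1, 55088132 to 55091307) moved by similar amounts. Hspd1 had a rebuilt mean of 5803 normalized counts in dual-targeted, 3189 in single-targeted and 2745 in wildtype cells. Hspe1 had 1765 in dual-targeted, 966 in single-targeted and 724 in wildtype cells. These genes are the pair that shares the promoter stretch with the 18-base run of heat shock units. In the authors' deposited table dual-targeted against wildtype gave 1.03 ± 0.20 for Hspd1 (adjusted p = 1.08e-06) and 1.22 ± 0.23 for Hspe1 (adjusted p = 6.36e-07). Single-targeted against wildtype gave 0.13 ± 0.15 for Hspd1 (adjusted p = 0.669) and 0.20 ± 0.22 for Hspe1 (adjusted p = 0.466) in the authors' deposited table. Both were called between the mutant groups in the authors' deposited table, Hspd1 at 0.74 ± 0.24 (adjusted p = 0.00765) and Hspe1 at 0.77 ± 0.22 (adjusted p = 0.00389). Their annotated spans overlap by 112 bases on opposite strands, and the sources used here do not say whether counting used strand, so reads in that overlap are uncertain. A copy of Hspd1, Hspd1-ps3, stood at 0.78 ± 0.43 with a mean count of 35.1 in the authors' deposited table of dual-targeted and wildtype cells (adjusted p = 0.0438).

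Hspb1 (HSP27, chromosome 5, 135887919 to 135889563), the small heat shock protein of the 10, was the least abundant in counts. Rebuilt, its mean was 274 normalized counts in dual-targeted, 141 in single-targeted and 126 in wildtype cells. The authors' deposited tables gave 1.05 ± 0.23 for dual-targeted against wildtype (adjusted p = 2.45e-05) and 0.06 ± 0.16 for single-targeted against wildtype (adjusted p = 0.86). The mutant groups differed by 0.80 ± 0.28 in the authors' deposited table (adjusted p = 0.0131).

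Dnajb1 (chromosome 8, 83608193 to 83612653), the HSP40 partner that brings clients to HSP70 and a heat-inducible gene, went the other way. Its rebuilt mean was 283 normalized counts in dual-targeted, 195 in single-targeted and 389 in wildtype cells, so both mutant groups lay under wildtype. In the authors' deposited table it fell in single-targeted cells by 0.87 ± 0.24 on the log2 scale (adjusted p = 0.0018). The value for dual-targeted against wildtype was -0.39 ± 0.19 and missed the threshold in the authors' deposited table (adjusted p = 0.0854). Dual-targeted against single-targeted gave 0.36 ± 0.24 (adjusted p = 0.16) in the authors' deposited table, so the mutant groups were not shown to differ for this gene.

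Genes of chromosome 8 as a whole were lower in the mutant groups. The median over other chromosome 8 genes with at least 50 mean counts was -0.32 (625 genes) for dual-targeted against wildtype and -0.21 (648 genes) for single-targeted against wildtype. The medians of the other members' chromosomes lay between -0.01 and 0.06 in these comparisons. Relative to the chromosome 8 median, Dnajb1 stood at -0.07 in dual-targeted and -0.66 in single-targeted cells. Within 1 Mb of its start, 28 other genes passed the same count limit. Of these, 3 were called higher and 11 lower in dual-targeted against wildtype, with a median of -0.11, and 0 higher and 3 lower in single-targeted against wildtype, with a median of -0.21. Tecr, whose start lies 0.222 kb from that of Dnajb1, stood at -0.66 ± 0.18 in dual-targeted (adjusted p = 9.27e-04) and -0.35 ± 0.23 in single-targeted cells (adjusted p = 0.185) in the authors' deposited tables. The part of the chromosome in the Dnajb1 value was not tested beyond this subtraction.

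**Figure D2:**
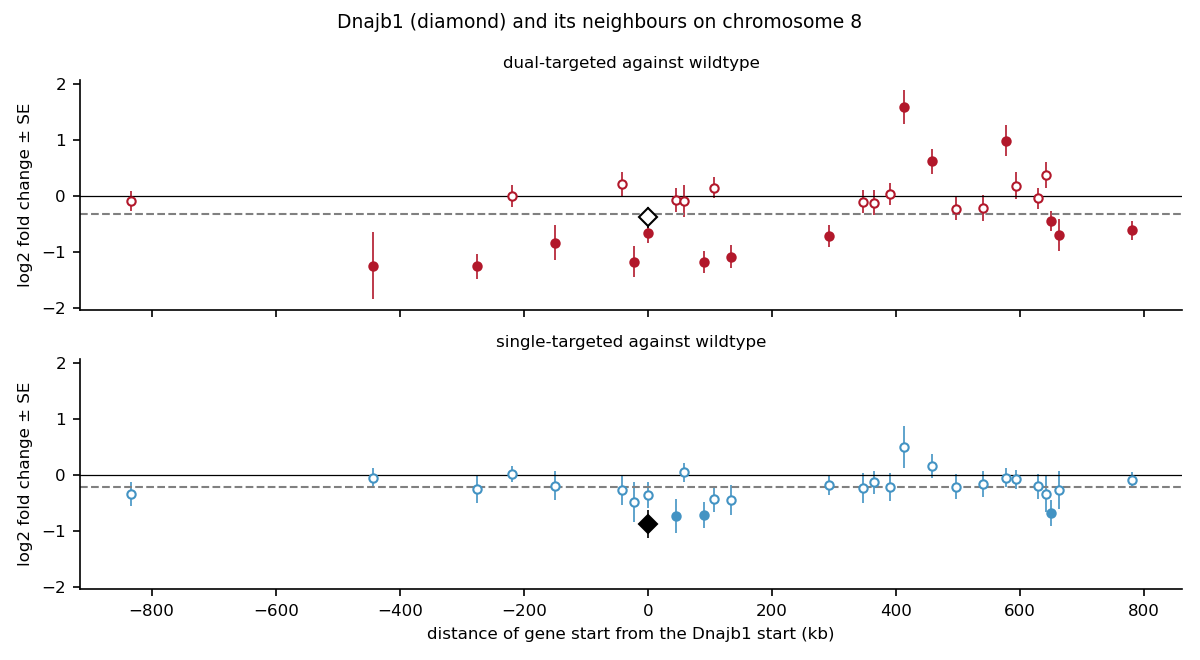
Log2 fold change with its SE for Dnajb1 (black diamond) and the 28 genes within 1 Mb, by distance of gene starts in kb, for dual-targeted (upper) and single-targeted cells (lower) against wildtype. Filled symbols mark an adjusted p under 0.05, and the dashed line marks the chromosome 8 median (-0.32 upper, -0.21 lower). Dnajb1 lies near the dashed line above and well under it below.

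The dual-targeted lines could be separated in part, because the authors also set the pair of H3f3a A/A clones by themselves against wildtype. Of the 10 genes, 6 were called higher in the clones (Hsph1, Hspe1, Hspb1, Hspd1, Hsp90aa1 and Hsp90ab1), where the authors' deposited table called 19.3% of 15640 genes, 9.05% higher and 10.3% lower. The clone and wildtype libraries also stand in the dual-targeted table, so the comparisons are not independent. None of the 10 was called lower there by the authors' DESeq2 fit, and at an unadjusted p under 0.05 the counts were 7 higher and 0 lower. Values ran from 0.53 ± 0.24 for Hsp90ab1 (adjusted p = 0.0483) to 1.34 ± 0.20 for Hsph1 (adjusted p = 7.14e-10) in the authors' deposited table. By subtraction, the remaining dual-targeted line also lay above wildtype for all 6. Hsph1 had a rebuilt mean of 2635 normalized counts in that line and 2959 in the clones, against 1138 in wildtype cells. Hspe1 had 1827 in that line and 1734 in the clones, against 724 in wildtype cells. Over the 6 genes the line differed from the clones by log2 ratios between -0.24 (Hsp90ab1) and 0.08 (Hspe1), and this difference has no error and no test. Dnajb1 stood at 251 normalized counts in that line and 298 in the clones, against 389 in wildtype cells.

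**Figure D3:**
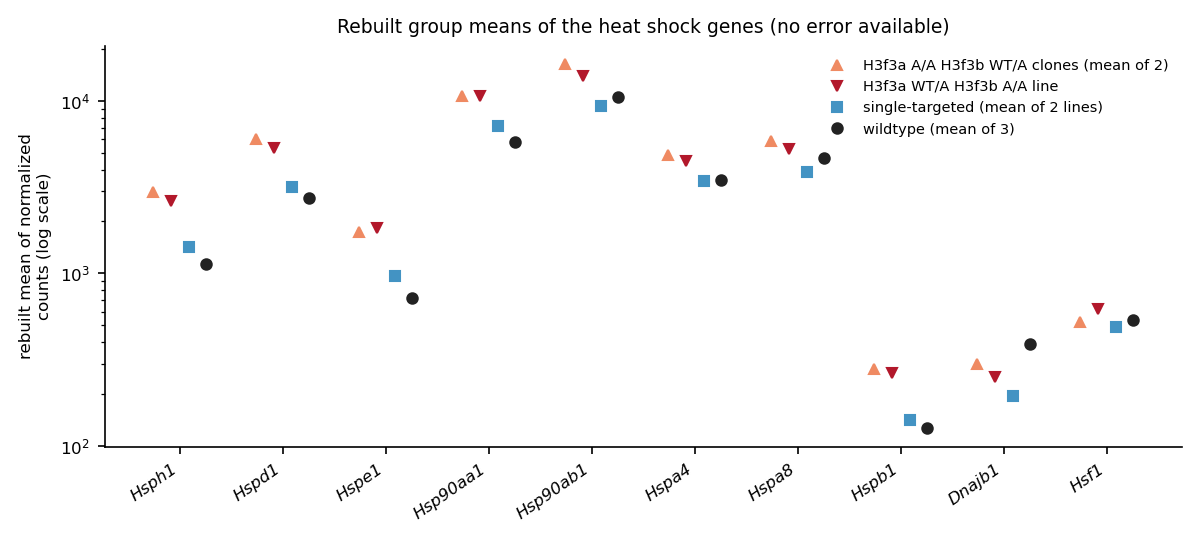
Rebuilt means of normalized counts (log axis) for each heat shock gene in the 2 clones, the third dual-targeted line, single-targeted and wildtype cells, with no error available. For Hsph1, Hspd1, Hspe1, Hsp90aa1 and Hspb1 the clones and the third dual-targeted line sit together above both other groups, and for Dnajb1 wildtype (389) is highest.

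Levels can be set beside each other only per length. Per kb of merged exons the rebuilt wildtype mean was highest for Hsp90ab1 (3522 normalized counts per kb), then Hsp90aa1 (1465), Hspa8 (1085) and Hspd1 (1039). It was lowest for Hsph1 (157), Hspb1 and Dnajb1 (both 122) and Hsf1 (75.1). The sources used here do not say whether exons or whole genes were counted, and per kb of the whole gene Hsp90ab1 (1922) was still highest and Hsf1 (21.8) lowest. Neighbours in this order cannot be said to differ, as the means carry no error.

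Fold changes also varied with gene length. Among protein-coding genes with at least 50 mean counts, Spearman's rho between fold change and annotated length was -0.29 for dual-targeted against wildtype (10039 genes). It was 0.16 for single-targeted against wildtype (10087 genes) and -0.44 for dual-targeted against single-targeted (9933 genes), all across genes, which are not replicates. The heat shock genes spanned 1645 (Hspb1) to 40644 bases (Hspa4). Set against the median of genes of like length, Hsph1 kept 1.29 in dual-targeted against wildtype, Hspe1 0.96, Hspd1 0.93, Hspb1 0.79 and Hsp90aa1 0.72. Short genes as a class were higher, and Hspe1 and Hspb1, the shortest of the 10, lay inside the range that holds the middle of such genes, from the 5th to the 95th percentile. Hsp90ab1 came to 0.24 on that scale, from its deposited 0.48, and Dnajb1 to -0.64, from -0.39. The median of the 10 became 0.57 for dual-targeted against wildtype and 0.41 for dual-targeted against single-targeted. This alternative was chosen after the data were seen.

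Beyond the 10 genes, 134 other chaperones and partners were listed by class. Of 118 tested in dual-targeted against wildtype, 27 were higher (22.9%, beside 10.8% of all genes) and 3 lower (2.54%, beside 10.1% of all genes), with a median log2 fold change of 0.14. The 27 were not spread evenly over the classes: 9 were among 14 chaperones of the endoplasmic reticulum and 4 among 8 subunits of the chaperonin CCT. Of 116 tested in single-targeted against wildtype, 0 were higher (beside 1.49% of all genes) and 1 lower (0.862%, beside 1.47%), so few calls were near the share of all genes. By the authors' DESeq2 fit at an unadjusted p under 0.05 the counts were 1 and 5. Of 111 tested in dual-targeted against single-targeted, 19 were higher (17.1%, beside 4.37% of all genes) and 1 lower (0.901%, beside 2.69%). Of these 19, 10 were among the 14 chaperones of the endoplasmic reticulum and 0 among the 8 CCT subunits. These shares, and those of each class below, were not tested against those of all genes.

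Among HSP90 cochaperones 5 of 19 were higher in dual-targeted against wildtype (median 0.22), beside 10.8% of all genes. Ahsa1, which stimulates the HSP90 ATPase, stood at 0.65 ± 0.21 (adjusted p = 0.00424) and Cacybp, which binds HSP90 and ubiquitin ligase parts, at 0.62 ± 0.19 (adjusted p = 0.00381) in the authors' deposited table. Fkbp4, an HSP90-bound immunophilin, was the listed gene that fell in single-targeted cells, at -0.60 ± 0.25 (adjusted p = 0.0361), and stood at 0.38 ± 0.22 in dual-targeted cells (adjusted p = 0.122) in the authors' deposited tables. Between the mutant groups Fkbp4 was called at 1.06 ± 0.32 in the authors' deposited table (adjusted p = 0.00381). Of the 16 other heat-inducible HSF1 targets tested, 4 were higher in dual-targeted against wildtype (median 0.35), beside the same 10.8% of all genes. They included Mrpl18, a mitochondrial ribosomal protein with a heat-shock isoform, at 0.81 ± 0.22 (adjusted p = 8.07e-04) in the authors' deposited table.

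Of 12 other DNAJA and DNAJB genes, 3 were higher in dual-targeted against wildtype, beside 10.8% of all genes. They included Dnajb11 of the endoplasmic reticulum at 0.78 ± 0.21 (adjusted p = 5.54e-04) and Dnajb5 at 0.65 ± 0.22 (adjusted p = 0.007) in the authors' deposited table. Of 29 DNAJC genes, 3 were higher, near the 10.8% of all genes called higher, and 1 was lower, beside 10.1% of all genes. Dnajc21, which acts in ribosome assembly, rose by 0.81 ± 0.18 (adjusted p = 3.88e-05), and Dnajc6, the clathrin-uncoating cofactor auxilin, stood at -1.22 ± 0.23 (adjusted p = 8.32e-07) in the authors' deposited table. Of 12 exchange factors and partners 2 were higher and 1 lower, counts too small to set apart from those shares of all genes. Bag1 stood at 0.57 ± 0.21 (adjusted p = 0.0141) and Sil1, of the endoplasmic reticulum, at -0.53 ± 0.22 (adjusted p = 0.0282) in the authors' deposited table. The small heat shock gene Hspb6 fell by 0.74 ± 0.38 (adjusted p = 0.0406), at a mean count of 44.4 in the authors' deposited table. Heat shock factor genes other than Hsf1 and their regulators gave 1 call of 5, near the 20.9% of all genes called. It was Hsf5 at 1.05 ± 0.56 (adjusted p = 0.0287) with a mean count of 20.4 in the authors' deposited table.

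Of 14 other mitochondrial chaperones and proteases, 2 were higher and 0 lower (median 0.13), beside 10.8% and 10.1% of all genes. They were Dnajc19 (0.66 ± 0.26, adjusted p = 0.018) and Grpel1 (0.46 ± 0.19, adjusted p = 0.0364), both of the mitochondrial HSP70 machinery, in the authors' deposited table. Chaperones of the endoplasmic reticulum, which are governed by the unfolded protein response and not by HSF1, were higher at 9 of 14 genes (median 0.62). They were led by Hspa5 (BiP, 1.24 ± 0.22, adjusted p = 1.97e-07) and Hsp90b1 (GRP94, 0.97 ± 0.22, adjusted p = 4.82e-05) in the authors' deposited table. Of 8 subunits of the cytosolic chaperonin CCT, 4 were higher and 0 lower (median 0.44), beside the same shares of all genes. Among the 4 were Cct6a (0.54 ± 0.18, adjusted p = 0.01) and Cct8 (0.49 ± 0.16, adjusted p = 0.01) in the authors' deposited table.

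**Figure D4:**
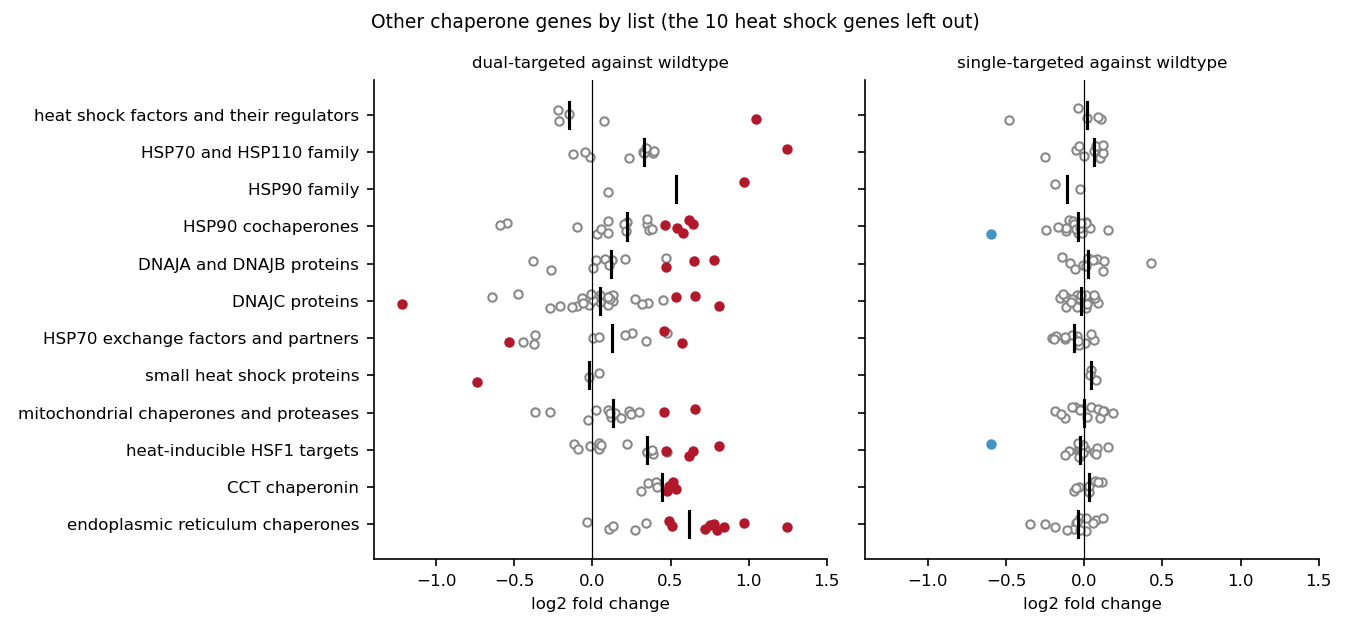
Log2 fold change of listed chaperone genes other than the 10, by class (a gene may stand in several), in dual-targeted (left) and single-targeted cells (right) against wildtype. Filled circles mark an adjusted p under 0.05 and black bars the class median, which is 0.62 on the left for chaperones of the endoplasmic reticulum and lies between -0.11 and 0.06 for the classes on the right.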

How the data were processed

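The data are 4 comparison tables made by the authors. Builds mm10 and GRCm38.p6 are named in the submitters' processing notes, as are DESeq2, featureCounts, STAR, SAMtools and deepTools, with no versions. Per the file headers, each table gives the mean of normalized counts (a signal averaged by the authors over the libraries compared), a log2 fold change with its SE, a p-value and an adjusted p-value. Missing adjusted p-values stayed missing. The depth per library is unknown, so precision enters only through the authors' SE. Symbols were placed with GENCODE M21 (98.6% matched).

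Scales of 0.978, 1.05 and 0.958 set the median gene of each group to wildtype. The method was tested on simulated data, which cannot show that such fixed scales hold for these tables. With these scales, group means of normalized counts were rebuilt from the deposited means. For 100% of 2504, 351, 836 and 2284 called genes with at least 50 mean counts in each table, they had the sign of the deposited log2 fold change, positive being higher in the mutant group, or in dual-targeted over single-targeted.

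The 10 genes and the lists were chosen with earlier results of these data known. Named genes were the 10, Hspa1b, H3f3a, H3f3b and, of each list, up to 2 further called genes with the lowest adjusted p in the dual-targeted and in the single-targeted comparison with wildtype. Tecr, Hspd1-ps3, Chordc1, Dnajb6 and the single markers were added after values were seen. Alternatives changed the threshold, the adjustment, the scaling and the libraries. Values were computed in Python 3.11.15 with pandas 2.3.3, scipy 1.17.1 and numpy 2.4.6, and drawn with matplotlib 3.10.9. P-values measure the spread between these libraries.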

Additional observations from a re-analysis of the deposited data

How the results depend on the processing

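The 6 calls in dual-targeted against wildtype numbered 5 to 8 over the 6 changes of threshold, adjustment or gene set tried. Hsp90ab1 was the gene lost at an adjusted p under 0.01 or at a log2 fold change of 0.5 or more. The 8 calls, at an adjusted p under 0.10, gained Hspa4, which was higher, and Dnajb1, which was lower. Without dual-targeted replicate 3, which leaves the clones alone, 6 were called. At 0.01 the 7 calls in dual-targeted against single-targeted became 3 (Hsph1, Hspd1 and Hspe1). At 0.01 the other chaperone genes called became 15 of 30 in dual-targeted against wildtype, 0 of 1 in single-targeted against wildtype, 9 of 20 in dual-targeted against single-targeted and 12 of 23 in the clones against wildtype. Without chromosomes 8, 14 and Y the 1 call in single-targeted cells became 0, by construction, since it was Dnajb1, and in the clones the 6 calls became 5, without Hsp90ab1. Of 150 recomputed values of single genes, 139 moved by less than the SE, 11 by more and 0 reversed a call. The 11 were Hspe1, Hsp90ab1, Hspb1 and Dnajb1 against genes of like length, in the dual-targeted and in the clone comparison with wildtype, Dnajb1 in both against its chromosome and Hspa8 in single-targeted cells as a ratio of rebuilt means. Leaving out other libraries was not run, since no table without them was analysed here. No paired analysis was possible because the tables carry no columns of libraries.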
